A study of Homo sapiens with 4 samples.

Results

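The genes of the centromere, the kinetochore and the spindle assembly checkpoint were examined on 4 arrays of DU145 cells. They were taken by gene symbol from a list of 46, and 44 of these had a probe set among the 17687 genes named on the array, 1 probe set each. CENPP and PMF1 were not analysed here. DU145 is an established human line of castration-resistant prostate cancer, kept in RPMI medium with serum. The treatment lasted 48 h and was vehicle, 5 µM No.10-3, 0.5 µM C-30 (called low-dose C-30) or 2 µM C-30 (high-dose C-30). The series title calls both compounds inhibitors of PSF, the RNA-binding protein encoded by SFPQ. There was 1 array per condition, so differences carry neither error nor test, and each value describes these 4 arrays only. The 3 comparisons with vehicle share the same vehicle array, and No.10-3 and C-30 were given at different doses, so their values stand side by side without a comparison.

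The centromere is marked by nucleosomes that carry the histone H3 variant CENP-A, on which a constitutive network of CENP proteins assembles. In mitosis the network recruits the KMN complexes, which bind microtubules, and on unattached kinetochores the checkpoint kinases and MAD and BUB proteins build the inhibitor of the anaphase-promoting complex. Transcripts of many of these genes peak in G2 and mitosis, so in RNA from a whole culture a larger share of cells in these phases and more transcript per cell cannot be told apart.

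Signals are log2 RMA values, on whose scale a log2 difference of 1 counts as 2-fold. The 95th percentile of 612 negative control probe sets lay between 7.06 and 7.32 on the 4 arrays and is called the negative control level. Of the epithelial markers of DU145, 4 of 5 (KRT8, KRT18, KRT19 and EPCAM) were above this level on every array and CDH1 was under it on every array, as were KLK3, TMPRSS2 and all measured markers of leukocytes (4), fibroblasts (2) and endothelial cells (3). The 63 ERCC probe sets had median differences from vehicle between -0.16 and -0.04. Their spread over probe sets (robust SD) was 0.126 with No.10-3, 0.166 with low-dose C-30 and 0.271 with high-dose C-30. Of 2197 positive control probe sets, 6.55%, 8.06% and 11.3% passed 2-fold either way in the same order. Their median differences were 0.06, 0.00 and -0.05. The 4 hybridization controls (bioB, bioC, bioD and cre) differed from vehicle by -0.41 to -0.32 on the No.10-3 array and by -0.01 to 0.15 on the C-30 arrays. The 4 spikes dap, lys, phe and thr differed by -0.54 to -0.28 with No.10-3, by -0.80 to -0.01 with low-dose C-30 and by -0.89 to -0.37 with high-dose C-30. The part of these controls and spikes in the results was not tested.

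Of the 44 measured genes, 23 were above the negative control level on all 4 arrays, 8 on 1 to 3 arrays and 13 on none. A gene entered a comparison when the higher of its 2 signals was at least 5.56, which is the median over named probe sets. The same 38 genes did so in every comparison. CENPQ, CENPT, CENPU, CENPW, MAD1L1 and SGO2 stayed under this floor on all 4 arrays. Of the 38, KNTC1 alone was under the floor with vehicle and entered through the treated arrays. Members and all genes alike were counted by the measured log2 difference, at 1 or more either way. Where 1 of the 2 signals was under the negative control level that difference is inexact, and a bound is given with the signal held at that level. Where both were under it, no fold is given.

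With No.10-3 at 5 µM most of these genes had a higher signal than with vehicle. The difference was above 0 for 29 of the 38 genes (76.3%), beside 54.0% of all 9219 genes past the floor. Without the floor it was above 0 for 34 of 44 genes (77.3%, beside 49.7% of all genes). The median difference of the 38 was 0.45, beside 0.05 for all genes. CENPF, KNTC1, CENPN, CENPI, KNL1 and INCENP had a measured difference of 1 or more, 6 genes or 15.8% of those past the floor, beside 4.36% of all genes past the floor. Of the 6, 4 were at least 2-fold higher by their signals or bounds (CENPF, CENPN, KNL1 and INCENP). KNL1 was so only by a bound of 2.02-fold. Its measured difference of 1.15 fell as low as 1.04 in other settings, where the bound was not recomputed. With centred arrays INCENP, at 1.08, came to 0.97. None of the 38 reached -1, beside 1.32% of all genes, and the lowest difference was -0.37. Quantile normalization and centring of the arrays gave smaller medians, 0.31 and 0.35. Centring shifted the median of all genes by -0.10 and took the share of 2-fold calls that were higher, over all genes, from 76.7% to 59.9%. The share of members above 0 lay between 63.2% and 80.0% over the settings tried, and that of all genes between 45.7% and 56.5%.

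With low-dose C-30 few members were far from vehicle. The differences were above 0 for 25 of 38 genes (65.8%), beside 46.9% of all 9267 genes past the floor, and for 28 of 44 without the floor (63.6%, beside 49.6%). The median was 0.16, beside -0.04 for all genes. CENPF and KNTC1 had a measured difference of 1 or more (5.26%, beside 3.4% of all genes), and none of the 38 reached -1, beside 2.77% of all genes. Neither was shown to be 2-fold higher: the bound for CENPF was 1.97-fold, and KNTC1 was under the negative control level on both arrays. A floor at that level left CENPF as the 1 gene counted, beside 3.61% of all genes higher and 3.03% lower.

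With high-dose C-30 genes were counted in both directions. The difference was above 0 for 28 of 38 genes (73.7%, beside 46.4% of all 9319 genes past the floor), and for 32 of 44 without the floor (72.7%, beside 50.8%). The median was 0.34, beside -0.06 for all genes. CENPF and BUB3 had a measured difference of 1 or more (5.26%, beside 4.67% of all genes), and NUF2 and SPC24 one of -1 or less (5.26%, beside 6.15%). By signals and bounds, BUB3 was at least 2-fold higher and SPC24 at least 2-fold lower; the bound for CENPF was 1.58-fold, and NUF2 was under the negative control level on both arrays. With centred arrays the split was 4 higher and 1 lower, beside 5.87% and 4.86% of all genes. CENPN and MIS18A, at 0.94 each, reached 1.01 while SPC24 moved from -1.03 to -0.96. Over all genes the share of 2-fold calls that were higher went from 43.2% to 54.7% with centring.

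Between the C-30 arrays, 21 of 38 genes were higher at 2 µM than at 0.5 µM (55.3%, beside 46.6% of all 9282 genes past the floor), with a median of 0.09. None reached a difference of 1, beside 1.39% of all genes, and NUF2 had one of -1 or less (2.63%, beside 2.18%), at signals that gave no usable fold. At the 2-fold threshold, the shares of members counted with either dose of C-30, and between the doses, thus lay near those of all genes.

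**Figure D1:**
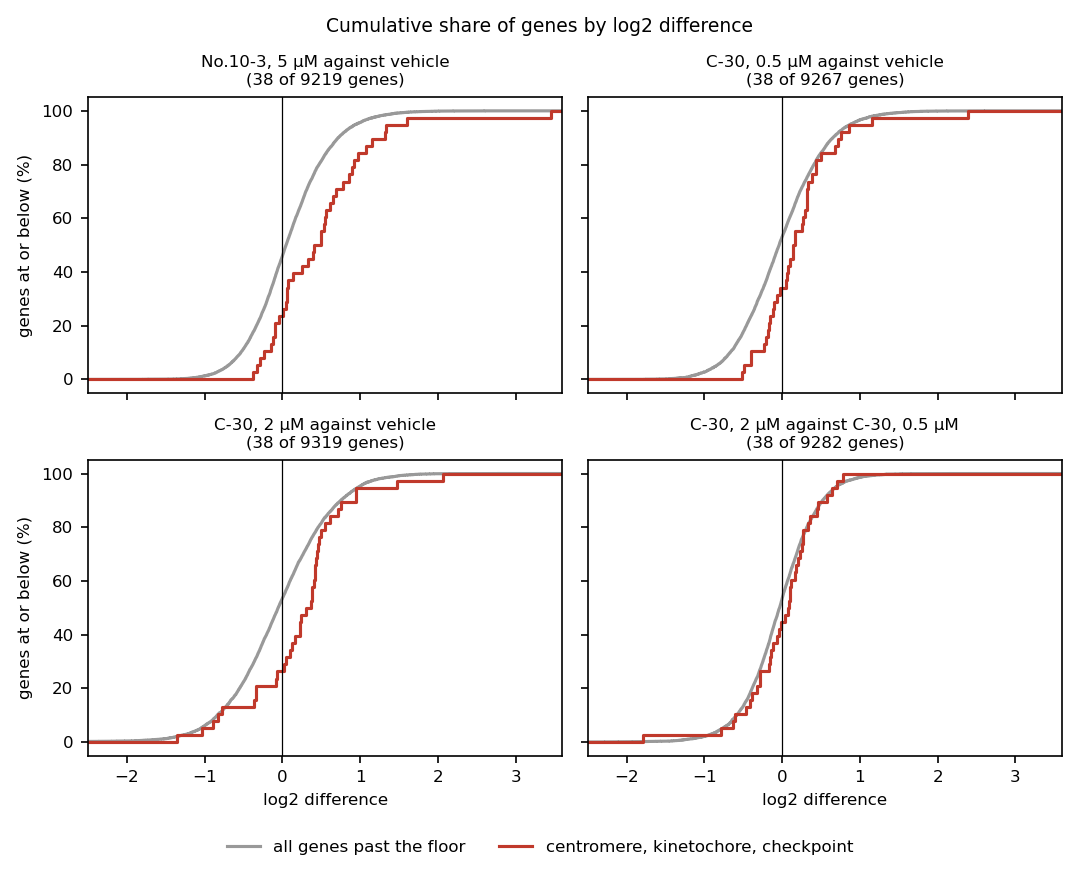
Cumulative share of genes (percent, y axis) at or below each log2 difference (x axis) for the 38 centromere, kinetochore and checkpoint genes past the floor and for all genes past it, in 4 comparisons. The members' curve lies to the right of the curve of all genes over most of its course with No.10-3 (medians 0.45 and 0.05) and with C-30 at 2 µM (medians 0.34 and -0.06), and closer to it at 0.5 µM (0.16 and -0.04).

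The gene with the largest measured differences was CENPF, a large coiled-coil protein of the outer corona, the fibrous layer that forms on kinetochores before microtubules attach. Its signals were 5.92 with vehicle, 9.37 with No.10-3, 8.31 with low-dose C-30 and 7.98 with high-dose C-30. The vehicle signal was under the negative control level, and all 3 treated signals were above it. The differences from vehicle were 3.45, 2.39 and 2.07 in that order, each inexact for that reason. Taking the vehicle signal at the negative control level in place of its own, CENPF was at least 4.12-fold higher with No.10-3, at least 1.97-fold with low-dose C-30 and at least 1.58-fold with high-dose C-30.

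Promoters of cell cycle genes often carry a CHR element, bound by the DREAM and B-MYB-MuvB complexes, beside CCAAT boxes, bound by NF-Y. RefSeq sequence of the 250 bases before the start (GRCh38.p14) was at hand for 35 of the 44 measured genes, with 39 starts. Of these genes, 4 had several starts, and each start was counted, also where the windows overlapped. The letters TTTGAA or TTTAAA, searched on both strands as the CHR, occurred in 14 of the 39 (35.9%). The share was 18.3% of the 20090 promoters of genes on the array and 21.9% of all 35116 promoters of that length. CCAAT, on both strands, occurred in 25 (64.1%, beside 32.8% and 32.0%), and both motifs in 12 (30.8%, beside 6.74% and 7.64%). The median difference from vehicle of the 13 genes with a CHR match was 0.50 with No.10-3, -0.06 with low-dose C-30 and 0.23 with high-dose C-30. For the 22 genes without one it was 0.12, 0.21 and 0.20. These medians were taken without the floor and were not computed with it. The genes with a match include SGO2, and those without include CENPQ, CENPT, CENPU, CENPW and MAD1L1, all under the floor. Of the members counted against vehicle with at least 1 of those 2 signals above the negative control level, the 5 with this sequence are shown, to set their letters side by side. Each is written 5′ to 3′ on the strand of the gene, with capitals marking CHR and CCAAT letters on either strand. They are CENPF (chr1:214602945-214603194, plus strand), INCENP (chr11:62123761-62124010, plus strand), CENPN (chr16:81006964-81007213, plus strand), CENPI (chrX:101100808-101101057, plus strand) and SPC24 (chr19:11155783-11156032, minus strand).
CENPF: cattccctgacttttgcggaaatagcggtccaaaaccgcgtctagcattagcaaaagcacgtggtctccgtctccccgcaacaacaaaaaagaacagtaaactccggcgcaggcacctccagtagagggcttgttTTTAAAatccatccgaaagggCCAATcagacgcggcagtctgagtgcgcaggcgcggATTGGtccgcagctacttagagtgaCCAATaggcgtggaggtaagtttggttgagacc
INCENP: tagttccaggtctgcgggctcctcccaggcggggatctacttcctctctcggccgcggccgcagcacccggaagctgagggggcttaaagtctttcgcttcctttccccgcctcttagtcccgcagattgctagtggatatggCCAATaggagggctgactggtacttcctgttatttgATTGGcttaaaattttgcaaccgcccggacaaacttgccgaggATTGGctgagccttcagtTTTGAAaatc
CENPN: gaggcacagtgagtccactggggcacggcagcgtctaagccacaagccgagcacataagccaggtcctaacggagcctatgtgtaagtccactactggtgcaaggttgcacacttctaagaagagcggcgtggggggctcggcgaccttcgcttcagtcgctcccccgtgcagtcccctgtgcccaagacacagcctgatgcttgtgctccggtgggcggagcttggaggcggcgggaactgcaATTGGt
CENPI: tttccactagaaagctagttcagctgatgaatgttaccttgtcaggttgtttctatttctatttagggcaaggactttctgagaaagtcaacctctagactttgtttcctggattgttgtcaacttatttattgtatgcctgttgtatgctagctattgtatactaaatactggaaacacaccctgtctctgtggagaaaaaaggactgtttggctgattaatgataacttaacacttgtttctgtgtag
SPC24: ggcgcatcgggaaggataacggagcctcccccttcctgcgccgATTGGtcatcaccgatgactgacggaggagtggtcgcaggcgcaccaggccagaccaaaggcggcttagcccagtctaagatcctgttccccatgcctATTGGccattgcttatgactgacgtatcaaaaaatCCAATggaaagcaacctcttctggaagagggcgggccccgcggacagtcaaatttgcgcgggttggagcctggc
CENPF and INCENP each had 1 CHR match, 115 and 10 bases before the start, and 3 CCAAT matches. SPC24 had 3 CCAAT matches and CENPN 1, without a CHR match, and the CENPI window held neither. The G and C share of the CENPI window was 36.8%, beside a median of 62.8% for the members' windows. A match of letters is a description and not a binding site.

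**Figure D2:**
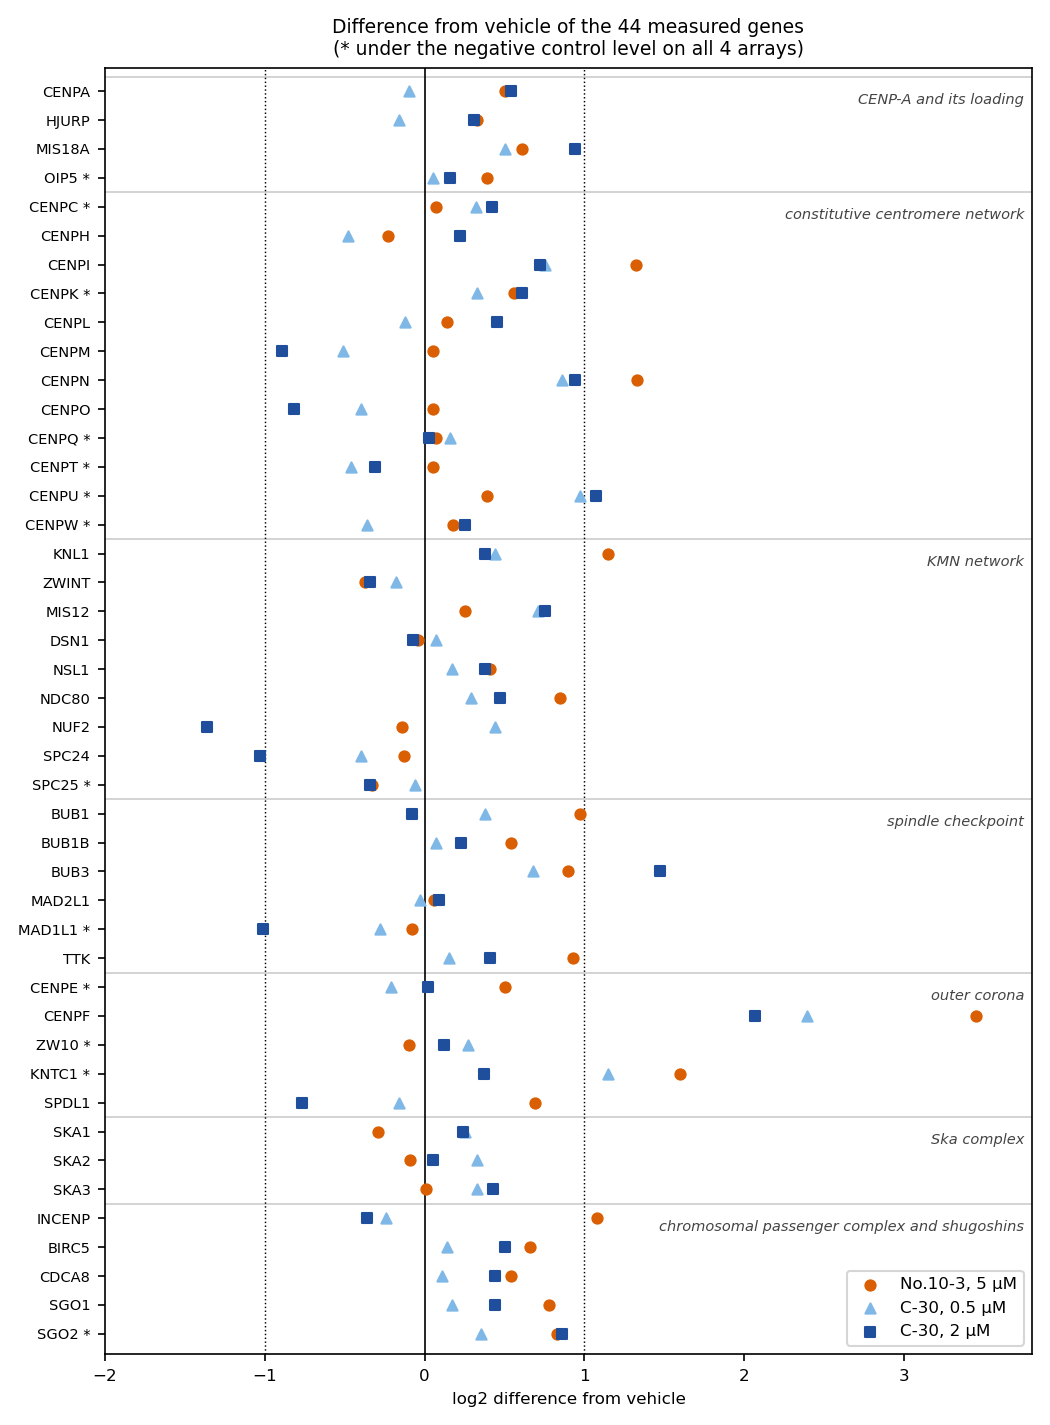
Log2 difference from vehicle (x axis) of each of the 44 measured genes (y axis, grouped by role) for No.10-3 at 5 µM and for C-30 at 0.5 and 2 µM, 1 array each; an asterisk marks genes under the negative control level on all 4 arrays. CENPF lies farthest to the right at 3.45, 2.39 and 2.07, and NUF2 farthest to the left at -1.36 with C-30 at 2 µM.

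The 4 genes of CENP-A and its loading were all past the floor, and all 4 were higher than with vehicle with No.10-3 (median 0.44, from 0.33 to 0.61) and with high-dose C-30 (median 0.43, from 0.16 to 0.94). With low-dose C-30 the median was -0.03, a sign that turned in other settings (up to 0.17). MIS18A, part of the Mis18 complex that licenses centromeres for new CENP-A, had signals of 8.11 with vehicle, 8.72 with No.10-3, 8.60 with low-dose C-30 and 9.05 with high-dose C-30. All 3 treated signals were thus above vehicle, by 0.61, 0.50 and 0.94. HJURP, the chaperone that deposits CENP-A, was among the steadier genes, with 11.76, 12.10, 11.61 and 12.07 in the same order. CENPA itself differed by 0.50, -0.10 and 0.54 and was above the negative control level on the No.10-3 and C-30 2 µM arrays only, and OIP5, the partner of MIS18A, was under that level on all 4.

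The constitutive centromere network was uneven. Of its 12 measured genes, 8 were past the floor. With No.10-3 the difference was above 0 for 7 of the 8 (median 0.11; 4 of 8 and 0.01 with centred arrays), with low-dose C-30 for 4 (median 0.10, which turned sign in other settings, down to -0.44) and with high-dose C-30 for 6 (median 0.44). CENPN, which reads the CENP-A nucleosome, had signals of 9.40 with vehicle, 10.74 with No.10-3, 10.27 with low-dose C-30 and 10.34 with high-dose C-30. The vehicle array was the lowest, and No.10-3 stood 2.52-fold above it (log2 difference 1.33), with 0.86 and 0.94 for the C-30 doses. CENPI, of the CENP-H/I/K/M module, had 6.76, 8.09, 7.52 and 7.48. Its vehicle signal was under the negative control level, so the measured difference of 1.32 with No.10-3 is inexact and the bound is at least 1.7-fold.

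The other network genes past the floor did not share a direction with C-30. CENPM, of the same module as CENPI, had 8.71 with vehicle, 8.76 with No.10-3, 8.20 with low-dose C-30 and 7.82 with high-dose C-30. CENPO, of the CENP-O complex that helps to recruit the kinase PLK1, had 10.90, 10.95, 10.49 and 10.07. Both were within 0.10 of vehicle with No.10-3 and lower with C-30, at -0.51 and -0.40 for 0.5 µM and -0.89 and -0.82 for 2 µM, with the lowest signal at the higher dose. CENPH had 8.75, 8.52, 8.27 and 8.97, lowest with low-dose C-30 and highest at 2 µM. CENPL, the partner of CENPN, differed by 0.14, -0.12 and 0.45. CENPC, which links CENP-A to the outer kinetochore, differed by 0.07 with No.10-3, 0.32 with low-dose C-30 and 0.42 with high-dose C-30. For CENPK the differences were 0.56, 0.33 and 0.61, and both genes were under the negative control level on all 4 arrays. CENPU was 1.07 higher with high-dose C-30 than with vehicle at signals of 5.55 and 4.48, both under the floor.

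In the KMN network, the microtubule-binding core of the outer kinetochore, the median of the 9 measured genes was -0.04 with No.10-3, 0.17 with low-dose C-30 and -0.07 with high-dose C-30. The No.10-3 and 2 µM medians turned sign in other settings (from -0.14 to 0.25, and up to 0.38). KNL1, the scaffold that docks BUB1 and BUB3, had signals of 7.18 with vehicle, 8.34 with No.10-3, 7.62 with low-dose C-30 and 7.56 with high-dose C-30. Only the vehicle signal was under the negative control level, and with No.10-3 the measured difference was 1.15 and the bound at least 2.02-fold. MIS12, of the complex that ties KMN to the centromere, had 7.77, 8.02, 8.48 and 8.52, so the C-30 arrays were the higher ones, by 0.71 and 0.75.

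The 4 subunits of the NDC80 complex, which holds the microtubule end, did not share a direction. NDC80 had 8.76 with vehicle, 9.62 with No.10-3, 9.05 with low-dose C-30 and 9.23 with high-dose C-30, highest with No.10-3 by 0.85. NUF2, its direct partner, had 6.71, 6.57, 7.15 and 5.36. The NUF2 signal exceeded the negative control level only with low-dose C-30, by a small margin, so its differences at 2 µM of -1.36 from vehicle and -1.79 from 0.5 µM give no usable fold. SPC24 had 10.58, 10.46, 10.19 and 9.55, far above the negative control level on each array, and was lowest with high-dose C-30, 2.04-fold under vehicle (log2 difference -1.03). SPC25, its partner, was under the negative control level on all 4 arrays and differed by -0.33, -0.06 and -0.34.

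The other genes of the KMN network varied little. DSN1, of the MIS12 complex, had the smallest range of the 23 genes above the negative control level on all arrays, with signals of 9.30 with vehicle, 9.26 with No.10-3, 9.37 with low-dose C-30 and 9.23 with high-dose C-30. ZWINT, which binds KNL1 and the RZZ complex, had 10.11, 9.74, 9.93 and 9.77, and NSL1, of the MIS12 complex, had 7.74, 8.14, 7.91 and 8.12. ZWINT was below vehicle on all 3 treated arrays, down to -0.37, and NSL1 above it, by up to 0.41.

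Of the spindle checkpoint genes, 5 of 6 were past the floor, and all 5 were above vehicle with No.10-3, with a median of 0.90. With centred arrays this came to 4 of 5 and 0.80. Without the floor it was 5 of 6 and 0.72, and with quantile normalization 4 of 6 and 0.65. With C-30 the medians were 0.15 at 0.5 µM and 0.23 at 2 µM, with 4 of 5 above 0 at each dose. BUB3, the adaptor that brings BUB1 and BUBR1 to KNL1, had signals of 11.83 with vehicle, 12.73 with No.10-3, 12.51 with low-dose C-30 and 13.30 with high-dose C-30. All 3 treated signals were above vehicle, and the highest was that of high-dose C-30, 2.77-fold above vehicle (log2 difference 1.47) and 0.79 above 0.5 µM. BUB1, a kinase that marks the inner centromere, had 10.24, 11.22, 10.63 and 10.16. It was highest with No.10-3 (0.97, just short of 2-fold) and within 0.10 of vehicle with high-dose C-30. TTK, the MPS1 kinase that starts checkpoint signalling, had 7.96, 8.89, 8.11 and 8.37, again highest with No.10-3 (0.93).

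BUB1B, which encodes the BUBR1 subunit of the checkpoint inhibitor, differed from vehicle by 0.54 with No.10-3, 0.07 with low-dose C-30 and 0.23 with high-dose C-30. MAD2L1, the MAD2 protein that captures CDC20, stayed within 0.10 of vehicle on all 3 arrays, at signals near the negative control level (7.07 to 7.19). MAD1L1, its kinetochore anchor, was under the floor throughout, with 5.55 with vehicle and 4.54 with high-dose C-30.

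**Figure D3:**
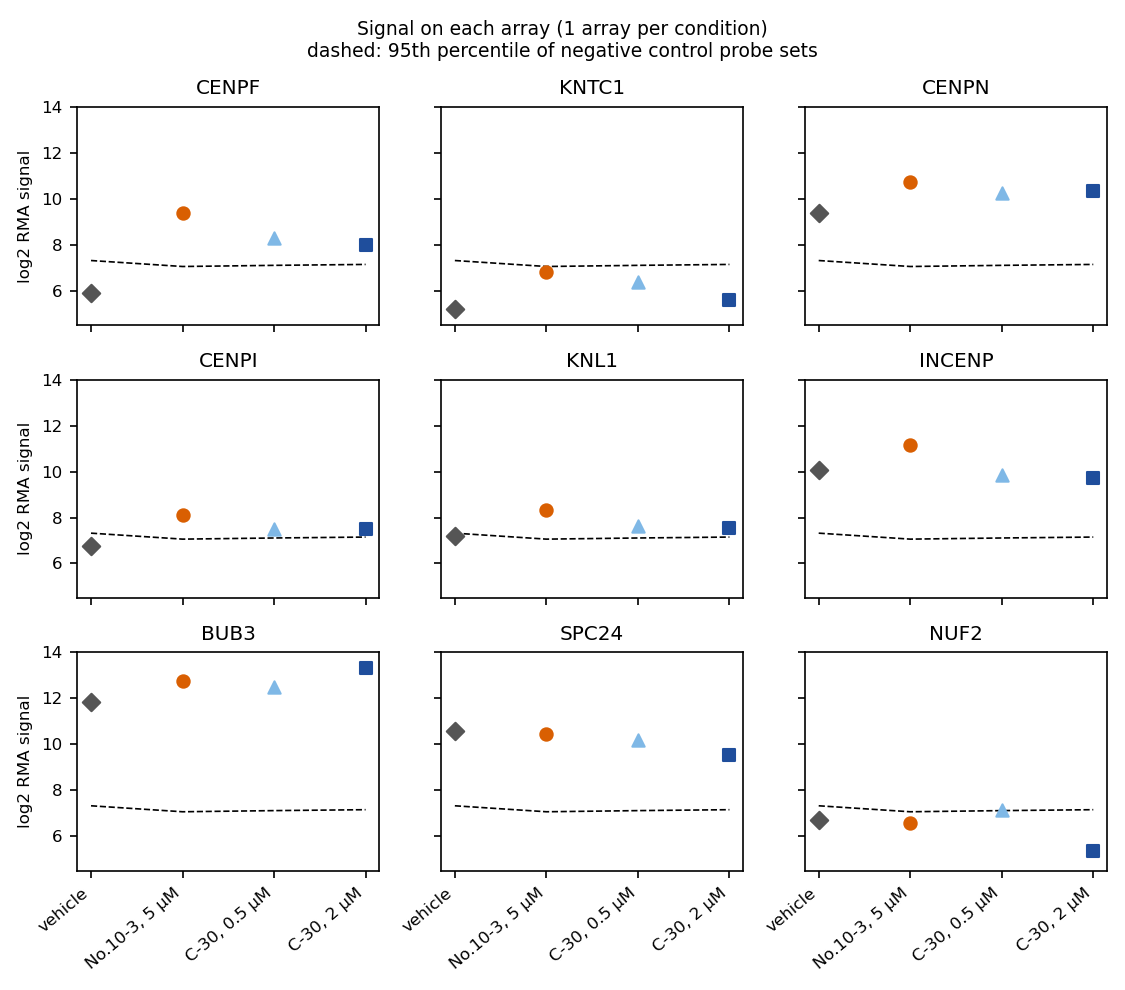
Log2 RMA signal (y axis) on each of the 4 arrays (x axis) for the 9 genes with a measured log2 difference from vehicle of 1 or more, either way, on at least 1 treated array; each point is 1 array and the dashed line is the negative control level. CENPF, CENPI and KNL1 cross the line between vehicle and No.10-3, KNTC1 stays under it on all arrays, and CENPN, INCENP, BUB3 and SPC24 stay above it.

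Besides CENPF, the outer corona list held CENPE, ZW10, KNTC1 and SPDL1. KNTC1, the ROD subunit of the RZZ complex that recruits dynein and MAD1, had signals of 5.22 with vehicle, 6.83 with No.10-3, 6.38 with low-dose C-30 and 5.59 with high-dose C-30. It differed by 1.60, 1.15 and 0.37, but all 4 signals were under the negative control level, so no fold is given. ZW10, another RZZ subunit, was also under that level and differed by -0.10, 0.27 and 0.12. SPDL1, the Spindly adaptor of dynein, was above the level with No.10-3 only (difference 0.69) and differed by -0.16 and -0.77 with C-30 at 0.5 and 2 µM. CENPE, the kinesin that carries chromosomes to the spindle equator, was under the level on all arrays, with 0.50, -0.21 and 0.02.

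The 3 Ska genes, whose complex follows shortening microtubule ends, showed small differences: their medians were -0.09 with No.10-3, 0.33 with low-dose C-30 and 0.24 with high-dose C-30. SKA2 had signals of 9.71 with vehicle, 9.62 with No.10-3, 10.04 with low-dose C-30 and 9.76 with high-dose C-30. SKA3 had 7.86, 7.87, 8.18 and 8.28. Both were within 0.10 of vehicle with No.10-3, and all 3 Ska genes were above vehicle at both doses of C-30, by 0.05 to 0.43.

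In the chromosomal passenger complex, which corrects wrong attachments through the kinase AURKB, all 4 genes past the floor (shugoshins included) were above vehicle with No.10-3, with a median of 0.72. INCENP, the scaffold that activates AURKB, had signals of 10.08 with vehicle, 11.15 with No.10-3, 9.84 with low-dose C-30 and 9.72 with high-dose C-30. It was 2.11-fold above vehicle with No.10-3 (log2 difference 1.08) and below vehicle with C-30 (-0.24 and -0.36). AURKB, not a member and under 2-fold in every comparison, differed by 0.48 with No.10-3 and by -0.41 and -0.38 with C-30. BIRC5 (survivin) and CDCA8 (borealin), which place the complex on the inner centromere, differed by 0.66 and 0.54 with No.10-3, 0.14 and 0.11 with low-dose C-30 and 0.50 and 0.44 with high-dose C-30. SGO1, which protects centromeric cohesin, differed by 0.78, 0.17 and 0.44 and was above the negative control level with No.10-3 only; SGO2 was under the floor.

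Other genes of the same pathway, taken from a list of 39 of which 35 were measured, included kinetochore kinesins, further centromere proteins and subunits of the anaphase-promoting complex. With No.10-3, 25 of 32 past the floor were above vehicle (78.1%, beside 54.0% of all genes), with a median of 0.28. PTTG1 (securin, 1.26) and KIF18A (a kinesin that damps chromosome movements, 1.22) had a measured difference of 1 or more (6.25%, beside 4.36%). With C-30 the medians were -0.05 at 0.5 µM (17 of 35 above 0) and -0.02 at 2 µM (16 of 33 above 0). KIF18A was counted at both doses (1.63 and 1.08), ANAPC13 was higher at 2 µM (1.44) and CENPB lower (-1.19). The share counted higher was 2.86% at 0.5 µM, beside 3.4% of all genes, and 6.06% at 2 µM, beside 4.67%. The share counted lower at 2 µM was 3.03%, beside 6.15%. KIF18A was above the negative control level with low-dose C-30 only and ANAPC13 with high-dose C-30 only, so those differences are inexact. For KIF18A with No.10-3 and with high-dose C-30, and for CENPB, both signals were under that level. Between the doses, 35 were past the floor. KIF2C, a microtubule-depolymerising kinesin, was 1.60 higher at 2 µM (2.86%, beside 1.39% of all genes). ANAPC15 (-1.16) and CENPB (-1.11) were lower (5.71%, beside 2.18%).

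Of 12 G2/M genes outside the members, 12 were above vehicle with No.10-3, 6 with low-dose C-30 and 10 with high-dose C-30. These are 100%, 50.0% and 83.3%, beside 54.0%, 46.9% and 46.4% of all genes past the floor. Their medians were 0.76, -0.02 and 0.66. With No.10-3, CCNB2, ANLN, TOP2A and CDK1 were at least 2-fold higher (33.3%, beside 4.36% of all genes). With low-dose C-30, CDK1 and CCNB2 were (16.7%, beside 3.4%), and with high-dose C-30 CCNB2, CDK1, CCNA2 and CCNB1 (33.3%, beside 4.67%). CCNB1, the main mitotic cyclin, differed by 0.83, -0.27 and 1.07, and MKI67 by 0.62, -0.41 and -0.85. Of 13 S phase genes, 5, 2 and 2 were above vehicle in the same order (38.5%, 15.4% and 15.4%), with medians of -0.11, -0.28 and -0.47. The highest differences of this list were 0.90, 0.82 and 0.48. MCM5 alone reached -1 with low-dose C-30 (7.69%, beside 2.77% of all genes). With high-dose C-30, MCM5, CCNE2, MCM4 and CDC45 did so (30.8%, beside 6.15%), CCNE2 with both signals under the negative control level. MCM5, the lowest of the 13 at both C-30 doses, differed by -0.24, -1.05 and -1.54, and PCNA by -0.08, -0.35 and -0.18. The part of cell cycle phase in the values of the centromere and kinetochore genes was not tested.

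**Figure D4:**
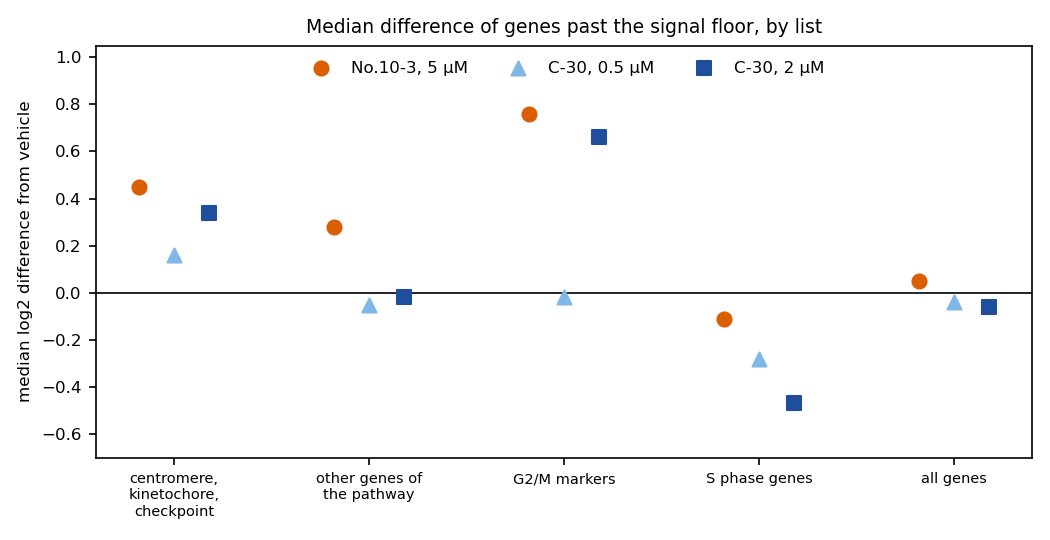
Median log2 difference from vehicle (y axis) of the genes past the floor in 5 lists (x axis) for No.10-3 at 5 µM and C-30 at 0.5 and 2 µM, 1 array each. The centromere, kinetochore and checkpoint genes stand at 0.45, 0.16 and 0.34, the G2/M genes at 0.76, -0.02 and 0.66, the S phase genes at -0.11, -0.28 and -0.47 and all genes at 0.05, -0.04 and -0.06.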

How the data were processed

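RNA of whole cultures was biotin-labelled with a kit for whole transcripts (per the labels' protocols) and hybridised to 4 arrays. The authors' deposited values are log2 signals per probe set, which per the submitters' processing notes came from RMA in Affymetrix Expression Console 1.3.0. The log base was inferred from the range of the values, and the highest signals exceed a scanner's range. The rescaling behind this, the genome build and the annotation were not given in the sources used here. The 2 deposited tables differ by at most 5e-05.

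Of 24351 probe sets, 17709 had 1 gene symbol, 0 several and 6642 none. Probe sets of the 20 genes with several were averaged. Log2 differences between arrays were counted at 1 or more either way above a floor of 5.56. Signals on all arrays are given for members past 2-fold and for those with the 12 largest or 6 smallest ranges among members above the negative control level everywhere, the rest by differences. Alternatives were a 1.5-fold threshold, no floor, floors at the 75th percentile (7.90) and the negative control level, quantile normalization, lowess (fraction 0.3), centred arrays and the other table. With 1 array per condition no test, SD between replicates or p-value was possible, and precision is limited by the number of arrays. Members, lists and motifs were chosen with earlier results of these data known. Scripts were tested on simulated data. Python 3.11.15, numpy 2.4.6, pandas 2.3.3, statsmodels 0.14.6 and matplotlib 3.10.9 were used.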

Additional observations from a re-analysis of the deposited data

Results flagged for a closer look

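NUF2, a subunit of the NDC80 complex, stood above vehicle with C-30 at 0.5 µM (log2 difference 0.44) and below it at 2 µM (-1.36). Its signal was under the negative control level on 3 of the 4 arrays. INCENP, the scaffold of the chromosomal passenger complex, stood above vehicle with No.10-3 at 5 µM (1.08) and below it with C-30 at 0.5 µM (-0.24) and 2 µM (-0.36), with signals above the negative control level on all 4 arrays. Neither difference was tested, since each condition had 1 array.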

How the results depend on the processing

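Of the recomputed counts and medians of the members, 75 moved little and 17 moved, and no median over the whole list changed sign. A count that changed by up to 1.5-fold was held to have moved little. The 75 include the results from the other table, which could not move, since its values differ by at most 5e-05. At a 1.5-fold threshold, 14 of 38 members were higher with No.10-3, beside 14.8% of all genes, and 0 lower, beside 8.34%. With C-30 at 0.5 µM, 6 were higher, beside 12.2% of all genes, and 0 lower, beside 13.4%. With C-30 at 2 µM, 7 were higher and 5 lower, beside 15.1% and 18.5%. Between the C-30 doses 3 were higher and 4 lower at that threshold, beside 7.89% and 9.92%. Floors at the 75th percentile and at the negative control level each left 1 member higher with C-30 at 0.5 µM, beside 3.27% and 3.61% of all genes. Each left 1 lower at 2 µM, beside 7.91% and 7.3%. The 75th percentile left 0 lower between the doses, beside 1.91%. Quantile normalization and centring gave 4 higher with C-30 at 2 µM, beside 5.71% and 5.87% of all genes. They gave medians of 0.31 and 0.35 with No.10-3. Lowess and centring each gave 1 lower with C-30 at 2 µM, beside 5.32% and 4.86% of all genes. The 13 genes under the negative control level on all arrays, and those near it, are limited by signal over background. No paired analysis was possible because each condition had 1 array.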
